A study of Mus musculus with 12 samples.

Results

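The regions described here are 2195 genomic bins of 10 kb in mouse embryonic stem cells (ESCs) that had 4 or more links to other bins but no H3K27ac value of their own. They were taken from lists of bins before (0 h) and 24 h after induction of a KLF knockout by 3 conditions: the bin was listed at both times, its H3K27ac value was missing at both times (below 1e-300 as deposited), and its link number was 4 or more at 0 h. H3K27ac is acetylated histone H3, a mark of active enhancers and promoters. The link number is the whole number in the fourth column of the deposited ESC lists, whose meaning the lists do not state. It summed to an even number on each of 20 chromosomes at both times, as it would if each link between listed bins of a chromosome were counted once at each end, and it is read here as that. The 2195 bins, called unvalued linked bins below, were 5.23% of the 41942 bins listed at both times. A missing value does not show that the mark is absent. The bins were set beside 15171 valued linked bins, which had 4 or more links at 0 h and an H3K27ac value at both times, and 13750 weakly linked unvalued bins, which had 1 to 3 links at 0 h and no value at either time.

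The series held 12 chromatin immunoprecipitation sequencing samples in 7 groups. V6.5 mouse ESCs carried a lentiviral, doxycycline-inducible Cas9 (vector c3GIC9) with guides to KLF4, or to KLF2, KLF4 and KLF5 in tandem, per the labels, and H3K27ac was measured in 2 replicates without induction and 2 replicates after 24 h of doxycycline. The titles carry both TKO and KLF4 KO, so which genes were cut is not settled by the labels. These ESC lines were clones picked by hand, and the uninduced cells carried the same vector. They were grown on irradiated feeder cells with serum and LIF. All 12 samples are labelled as cultured with 2i, a pair of kinase inhibitors used to keep ESCs naive. Induced pluripotent stem cells (iPSCs) gave 2 replicates of KLF4 and 2 of H3K27ac, and the inputs were 2 ESC libraries and 1 library for each iPSC target. Each immunoprecipitated group came as 1 combined list, so no error between replicates, no read depth and no test across samples could be had. Intervals below are exact (Clopper-Pearson) binomial intervals at 95% that cover counting error only, and agreement is given over the 20 chromosomes. All 10 pluripotency markers held a bin with an H3K27ac value at 0 h. The median of the highest value of each gene was 9.05, with Esrrb at 29.7. Of the fibroblast or feeder markers 4 of 9 held one (Col1a1, Fn1, Vim and Loxl1, highest value 12.1 at Loxl1). The part of feeder cells in the results was not tested.

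Enhancers reach their target genes across distance by looping of the chromatin fibre, and in ESCs strong enhancers and promoters of the pluripotency network sit at hubs of many contacts. KLF4 is a zinc-finger factor that binds CACCC and related GC-rich sites at such enhancers and promoters, and it shares sites with its relatives KLF2 and KLF5. No KLF4 list of ESCs was used here, so each KLF4 value below is that of iPSCs on bins defined in ESCs.

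Promoters in these bins with a KLF4 peak and no H3K27ac peak in iPSCs are shown first, as examples of KLF4 binding at a gene start in them. Of the 189 promoter windows whose start lay in an unvalued linked bin (RefSeq, GRCm38.p6, 250 bases before to 50 after the start of a protein-coding gene, on 19 chromosomes), 38 overlapped an iPSC KLF4 peak and 4 an iPSC H3K27ac peak. The 5 shown are those in the bins with the most KLF4 peaks that carry a KLF4 peak on the window itself, and capitals mark GGGNGTGG on either strand (CCACNCCC on the printed one), the core of the KLF4 motif. CCACNCCC holds the CACCC box only where N is C, as in CCACCCCC of Mapk11, and other matches are related GC-rich sites. Many KLF and SP proteins read such sites, so a match is not particular to KLF4.
Nfkb2: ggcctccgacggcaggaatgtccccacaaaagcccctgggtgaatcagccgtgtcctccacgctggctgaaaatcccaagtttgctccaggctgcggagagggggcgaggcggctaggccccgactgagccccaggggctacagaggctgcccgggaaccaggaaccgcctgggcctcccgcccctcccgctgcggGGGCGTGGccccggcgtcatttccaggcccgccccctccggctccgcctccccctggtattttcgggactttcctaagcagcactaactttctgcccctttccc
Cdc42ep2: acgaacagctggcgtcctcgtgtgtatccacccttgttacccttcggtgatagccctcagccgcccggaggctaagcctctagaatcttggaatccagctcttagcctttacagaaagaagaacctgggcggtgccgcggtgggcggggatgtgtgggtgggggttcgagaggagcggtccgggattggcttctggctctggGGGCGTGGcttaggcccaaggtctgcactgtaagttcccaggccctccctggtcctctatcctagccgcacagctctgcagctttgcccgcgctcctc
Mapk11: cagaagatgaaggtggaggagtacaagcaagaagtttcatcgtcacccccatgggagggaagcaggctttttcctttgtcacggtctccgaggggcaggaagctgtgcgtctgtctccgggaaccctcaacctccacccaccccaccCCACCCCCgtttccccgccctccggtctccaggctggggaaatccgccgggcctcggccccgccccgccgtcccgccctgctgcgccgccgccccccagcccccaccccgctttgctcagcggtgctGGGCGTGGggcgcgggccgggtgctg
Selenov: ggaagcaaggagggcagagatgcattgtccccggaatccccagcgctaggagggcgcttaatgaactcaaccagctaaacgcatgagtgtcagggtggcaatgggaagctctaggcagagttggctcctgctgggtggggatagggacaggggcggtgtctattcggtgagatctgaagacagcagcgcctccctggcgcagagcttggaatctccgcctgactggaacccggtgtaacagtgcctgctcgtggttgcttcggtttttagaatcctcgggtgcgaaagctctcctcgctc
Ccdc116: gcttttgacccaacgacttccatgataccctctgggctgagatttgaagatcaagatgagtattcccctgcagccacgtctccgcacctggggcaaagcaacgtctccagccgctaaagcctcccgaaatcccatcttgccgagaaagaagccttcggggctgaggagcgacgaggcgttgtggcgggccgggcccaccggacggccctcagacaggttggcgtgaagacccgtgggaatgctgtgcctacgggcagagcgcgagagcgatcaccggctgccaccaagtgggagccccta

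Nfkb2 encodes the p100 precursor of the non-canonical NF-kappaB pathway, and its window (chr19:46305445-46305744, plus strand) held 1 match and lay under a KLF4 peak over 234 of 300 bases. Its bin held 3 KLF4 peaks and had 8 links at 0 h and 5 at 24 h. The window of Cdc42ep2, an effector of the CDC42 GTPase (chr19:5924767-5925066, minus strand), held 1 match and lay wholly under KLF4 peaks, in a bin with 13 links at 0 h and 8 at 24 h. Mapk11, the gene of the stress kinase p38 beta (chr15:89149557-89149856, minus strand), held 2 matches, 1 in each orientation, and its bin had 6 and 5 links. Selenov, a selenoprotein gene (chr7:28291137-28291436, minus strand), and Ccdc116 (chr16:17147180-17147479, minus strand) held no match in these letters, and their bins had 5 and 4 links and 4 and 2 links at 0 h and 24 h. None of the 5 windows overlapped an iPSC H3K27ac peak. All 5 bins had fewer links at 24 h than at 0 h, as did 59.8% of all unvalued linked bins, whose minimum was set at 0 h alone.

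Promoters in the unvalued linked bins were less CpG-rich than those in valued linked bins and held the KLF4 core more often. A gene start lay in 8.90% (7.70 to 10.2) of these bins, in 27.2% (26.4 to 27.9) of valued linked bins and in 7.24% (6.81 to 7.70) of weakly linked unvalued bins. The observed over expected CpG ratio was 0.6 or more in 37.6% (30.6 to 44.9) of the 189 promoters, 73.6% (72.3 to 74.9) of 4627 and 32.5% (29.6 to 35.5) of 1003, and in 47.6% of all 18615 windows on these chromosomes. GGGNGTGG stood in 33.9% (27.2 to 41.1), 23.4% (22.1 to 24.6) and 21.9% (19.4 to 24.6), and in 19.5% of all windows. A KLF4 peak covered part of 20.1% (14.6 to 26.5), 36.5% (35.2 to 38.0) and 15.0% (12.8 to 17.3), and of 21.9% of all windows. An iPSC H3K27ac peak covered part of 2.12% (0.580 to 5.33), 75.1% (73.8 to 76.3) and 1.99% (1.22 to 3.06). In the unvalued linked bins 22 of the 38 KLF4-covered promoters and 64 of all 189 held the core.

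The 38 KLF4-covered promoters lay in 37 bins with 194 links in sum at 0 h and 141 at 24 h (24 h over 0 h, 0.727). Of the 37 bins, 28 were lower, 7 equal and 2 higher at 24 h. The other 143 bins with a gene start had 712 and 590 links (0.829), with 89 lower, 32 equal and 22 higher. The share of lower bins was thus 75.7% with KLF4 on the promoter and 62.2% without. These shares have no interval here and were not compared at equal 0 h links, whose mean was 5.24 with KLF4 and 4.98 without. Whether they differ was not tested. Besides those printed, the 38 genes included Ascl2, a basic helix-loop-helix factor of the trophoblast (6 links at both times), Hspa1a, an inducible heat-shock chaperone (8 and 6), Nfkbie, an inhibitor of NF-kappaB (7 and 6), Jdp2, an AP-1 family repressor (4 and 3), and Lrig1, a negative regulator of growth factor receptors (4 and 1). Icam5 (4 and 5) and P4htm (6 and 7) were the genes of the 2 bins that were higher. The genes named in this paragraph were chosen after their values were seen.

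Over whole bins, the unvalued linked bins held KLF4 far less often than valued bins with as many links. An iPSC KLF4 peak lay in 235 of 2195 (10.7%, 9.44 to 12.1), in 42.9% (42.1 to 43.7) of valued linked bins and in 7.77% (7.33 to 8.23) of weakly linked unvalued bins, and in 25.7% of all bins listed at both times. At equal 0 h links the odds ratio against valued linked bins was 0.215 (Mantel-Haenszel, 0.186 to 0.248), and the share was lower on 20 of 20 chromosomes, with a mean over chromosomes of 10.7% (SD 4.31) against 42.2% (SD 3.95). Within gene-end classes as well, the odds ratio was 0.232 (0.201 to 0.268). Against weakly linked unvalued bins the odds ratio, without classes of links, was 1.42 (1.23 to 1.65). The share was higher than theirs on 16 chromosomes and lower on 4. Of the bins with a peak, 204 held 1, 25 held 2 and 6 held 3.

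The KLF4 share was below that of valued bins in each class from 4 to 12 or more links, but at 10 links the difference was not resolved, with 31.6% (12.6 to 56.6) of 19 bins against 50.8% (47.3 to 54.3). In bins with 4 links the KLF4 share was 9.86% (8.15 to 11.8) without a value and 32.8% (31.1 to 34.6) with one, and in bins with 8 links 15.3% (7.22 to 26.99) and 41.8% (39.2 to 44.4). In valued bins the share was 64.5% (62.4 to 66.5) at 12 or more links, where 1 of 8 unvalued linked bins held KLF4. The minimum of 4 links marked no step, since bins just outside it, with 3 links, held KLF4 in 9.43% of 2185 and those just inside in 9.86% of 1085. The same bins lay near a gene end in 28.6% and 28.0% and touched a valued bin in 74.8% and 79.0%.

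**Figure D1:**
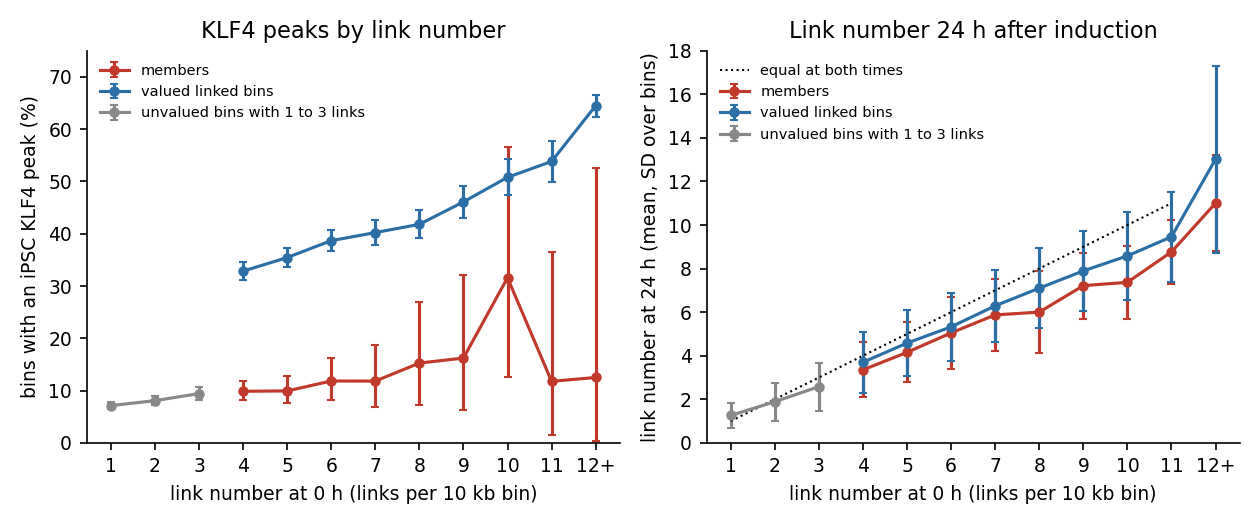
Left, percent of bins with an iPSC KLF4 peak by link number at 0 h, with exact 95% intervals; right, mean link number at 24 h by link number at 0 h, with the SD over bins. Red points are the unvalued linked bins (members), blue the valued linked bins and grey the weakly linked unvalued bins; the red points lie below the blue ones in both plots, at 4 links 9.86% against 32.8% and 3.35 against 3.70 links, and the last class pools 12 or more links.

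H3K27ac peaks of iPSCs, which the choice of bins did not use, were rare in them too. An iPSC H3K27ac peak lay in 85 of the 2195 bins (3.87%, 3.10 to 4.77), in 83.5% (82.9 to 84.1) of valued linked bins, in 2.12% (1.89 to 2.38) of weakly linked unvalued bins and in 45.2% of all bins listed at both times. The odds ratio at equal links was 0.0109 (0.00873 to 0.0137) against valued linked bins, lower on 20 of 20 chromosomes. Against weakly linked ones, without classes of links, it was 1.86 (1.45 to 2.37), higher on 15 and lower on 5. Where KLF4 was present, 28 of 235 unvalued linked bins (11.9%, 8.07 to 16.8) also held an iPSC H3K27ac peak, against 94.3% (93.8 to 94.9) of valued linked bins with KLF4. The bin with the most such peaks, 4, had 4 links at both times (chromosome 14, 63130001 to 63140000). It lay in a gene, and the nearest gene end, 5150 bp away, was that of Fdft1, the gene of squalene synthase. The bin at Rab27a, a GTPase of vesicle transport (chromosome 9, 73090001 to 73100000), held 3 of them and 1 KLF4 peak and had 5 links at both times. These bins were chosen after their values were seen.

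KLF4 peaks in the unvalued linked bins were few and narrow. Of all 21563 KLF4 peaks, 269 (1.25%) were centred in them, with a median width of 242 bp against 283 bp for the 8522 peaks centred in valued linked bins. For 136 peaks in bins with a valued bin on 1 side, the centre lay on the side of the bin that faces the valued bin in 41.2% (32.8 to 49.9) of cases, at a median of 5631 bp from that edge. The peaks were thus not gathered at the edge toward the valued neighbour. Of the bins with KLF4, 74.5% (68.4 to 79.9) touched a valued bin, against 81.6% (79.8 to 83.3) of those without KLF4.

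Of the 235 bins with KLF4, 53.2% (46.6 to 59.7) lay at gene ends, so whether most did is not resolved. The share was 53.7% (52.4 to 54.9) of valued linked bins with KLF4. The KLF4 share was 19.1% (16.2 to 22.3) in the 654 bins with a protein-coding gene end inside or up to 2 kb away and 7.14% (5.90 to 8.54) in the other 1541. In valued linked bins the same shares were 50.2% (49.0 to 51.4) and 36.7% (35.6 to 37.7). The 6 bins with 3 KLF4 peaks all lay at gene ends. Besides Nfkb2 and Mapk11 they were the bins of Klc2, a kinesin light chain (chromosome 19, 5110001 to 5120000, 7 links at 0 h and 5 at 24 h), Mgat4b, a glycosyltransferase (chromosome 11, 50220001 to 50230000, 5 and 6), Dll3, a ligand of the Notch family (chromosome 7, 28290001 to 28300000, 5 and 4, the bin of the Selenov promoter), and Ydjc (chromosome 16, 17140001 to 17150000, 4 and 2, the bin of the Ccdc116 promoter). The next by links had 2 peaks: Cdc42ep2 (13 and 8), Tjp3, a tight junction protein (8 and 7), Ryr1, a calcium channel (7 and 3), and Psd2 (7 and 5). Of these 10 bins, 9 had fewer links at 24 h and 1, at Mgat4b, had more. Fewer links at 24 h were seen in 59.8% of all 2195 unvalued linked bins, whose minimum was set at 0 h alone.

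The position to genes was closer to that of weakly linked unvalued bins than to that of valued ones. A gene end lay within 2 kb of 29.8% (27.9 to 31.8) of the unvalued linked bins, 45.8% (45.0 to 46.6) of valued linked bins and 25.6% (24.8 to 26.3) of weakly linked unvalued bins, against 37.5% of all bins listed at both times. At equal links the odds ratio against valued linked bins was 0.500 (0.452 to 0.553), lower on 20 of 20 chromosomes. Against weakly linked bins, without classes of links, it was 1.24 (1.12 to 1.37), higher on 14 and lower on 6. Another 42.0% (39.9 to 44.1) lay in a gene away from its ends and 28.2% (26.3 to 30.1) outside genes, where valued linked bins had 32.0% and 22.1% and weakly linked ones 45.2% and 29.2%. A gene end within 100 kb was found for 2134 bins, which were assigned to 1558 genes, 1175 of them with 1 bin. Bins are named by that nearest gene end, which need not belong to the gene they lie in.

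Most unvalued linked bins lay next to a valued one. A bin valued at 0 h touched 1774 of the 2195 (80.8%, 79.1 to 82.4), against 60.4% (59.6 to 61.2) of weakly linked unvalued bins and 86.4% (85.8 to 86.9) of valued linked bins. Against the weakly linked bins of the same chromosome the odds ratio was 3.29 (2.93 to 3.69), and the share was higher on 20 of 20 chromosomes. At equal links it was 0.889 (0.787 to 1.00) against valued linked bins, lower on 13 chromosomes and higher on 7. A valued bin stood on both sides of 32.1% (30.1 to 34.1), against 9.48% (8.99 to 9.98) of weakly linked and 45.3% (44.5 to 46.1) of valued linked bins. Another 322 bins were 2 bins away and 99 were 3 or more, with 7 bins as the largest distance, where weakly linked bins reached 44. In the list itself the 0 h value of 16.0% of valued bins was the same as that of the following bin, so values extend over stretches longer than a bin and the distances are a description.

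**Figure D2:**
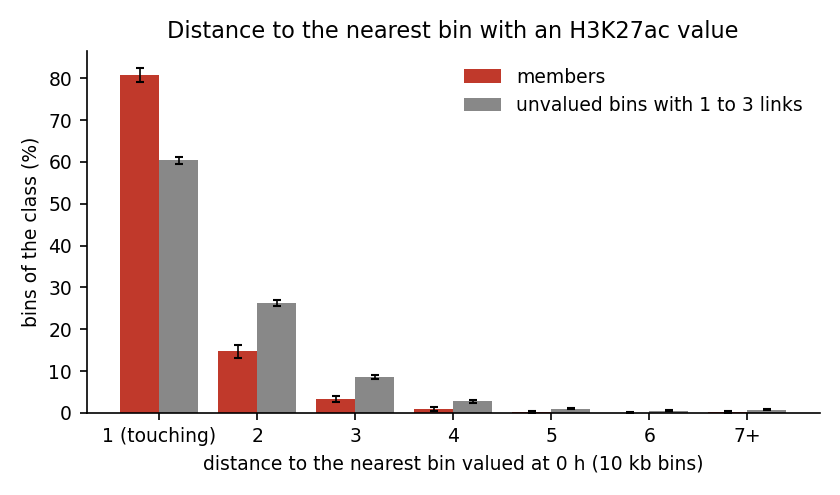
Distance to the nearest bin valued at 0 h, in 10 kb bins, as percent of the class with exact 95% intervals; red bars are the unvalued linked bins (members) and grey bars the weakly linked unvalued bins. The red bar at 1 (touching) reaches 80.8% and the grey one 60.4%, and the order turns from 2 bins on.

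Of the 1774 touching bins, 1371 (77.3%) had a valued neighbour with more links than their own, 179 had one with as many, and 224 (12.6%) had more links than either valued neighbour. The median was 5 links in the bin and 8 in its most linked valued neighbour. Across these bins both numbers were weakly related (Spearman's rho 0.31, 1774 bins, neighbours of the same chromosome and library). The 2384 valued neighbours did not have higher H3K27ac values than the other 24428 valued bins, with a median at 0 h of 4.32 against 4.68, and held KLF4 in 35.4% against 38.2%. They had a median of 7 links against 4. A KLF4 peak lay in a valued neighbour of 44.1% of the 1774, 52.0% where the bin itself held KLF4 and 43.3% where it did not.

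The bin with the most links lay at Ganab, a glucosidase subunit of the endoplasmic reticulum (chromosome 19, 8900001 to 8910000), with 18 at 0 h and 15 at 24 h beside a valued neighbour with 31. At Abcc5, a drug and nucleotide exporter (chromosome 16, 20340001 to 20350000), the bin had 14 and 12 links and its neighbour 9, so that here the bin without a value was the more linked one. Next came the bins of Pak1ip1 (13 and 10), Cdc42ep2 (13 and 8), the polarity kinase gene Mark2 (13 and 9) and the ion channel gene Trpm3 (13 and 12). Epb41l4a (12 and 12), Spindoc (12 and 10), the ganglioside enzyme gene B4galnt1 (11 and 8) and Irf2bpl (11 and 10) completed the first 10. All 10 touched a valued bin, 2 of them, at Cdc42ep2 and B4galnt1, held KLF4, and 6 lay on chromosome 19 or 18.

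The farthest bins lay 7 bins from a valued one at Evi5l (chromosome 8, 4160001 to 4170000, 4 links at 0 h and 1 at 24 h), near Lvrn (chromosome 18, 46830001 to 46840000, 4 and 3) and at Gpc3, a cell-surface glypican (chromosome X, 52270001 to 52280000, 5 and 6). The following bin at Lvrn was 6 bins away (5 and 5) and that at Kirrel 5 bins (chromosome 3, 87080001 to 87090000, 4 and 3). None of the 5 held KLF4, and the bin at Gpc3 held an iPSC H3K27ac peak.

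Most unvalued linked bins stood alone. They formed 1890 runs of touching bins, of which 1637 were single bins, 211 pairs, 34 runs of 3, 6 of 4 and 2 of 5. The longest were at Lrp5, a co-receptor for Wnt proteins (chromosome 19, 3600001 to 3650000), with links of 5, 11, 9, 5 and 5 at 0 h and 3, 6, 6, 3 and 3 at 24 h, and near Il17b and Pcyox1l (chromosome 18, 61650001 to 61700000), with sums of 29 and 27. The runs of 4 with the most links lay at Capn11, Tmem63b and Mrpl14 (21 and 17), Kif13b (20 and 17) and Sgk1 (19 and 17, tied with Adk and Ankhd1 at 0 h). Every bin of the Lrp5 run was lower at 24 h, where 59.8% of all unvalued linked bins were, and none held KLF4.

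Some genes gathered many of these bins. Rbfox2, which encodes a splicing factor (chromosome 15, 77078990 to 77308434), had 10 assigned bins with 51 links at 0 h and 58 at 24 h, 2 of them lower and 6 higher. Sgk1, a kinase regulated by serum and glucocorticoids (chromosome 10, 21882184 to 21999903), had 9 with 43 and 38. Genes with 6 were Epb41l4a (45 and 36), Sgms1, a sphingomyelin synthase (44 and 35), Zfp516 (44 and 31), Tle4, a Groucho co-repressor (38 and 29), Dgkg, a diacylglycerol kinase (32 and 28), Ankhd1 (30 and 29), Kif13b, a kinesin (30 and 24), and Zfp462, a zinc-finger factor (30 and 26). KLF4 lay in 1 of the bins of Epb41l4a and 1 of those of Zfp516, and in none of the bins of the other 8 genes. Rbfox2 was the exception among the 10 genes, with more links at 24 h than at 0 h. Of all 2195 unvalued linked bins, 59.8% were lower and 14.9% higher at 24 h.

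The unvalued linked bins were spread unevenly over the chromosomes. They made up 12.2% of the listed bins on chromosome 19 and 10.9% on chromosome 18, and 1.66% on chromosome 2 and 1.42% on chromosome 1. On chromosome X the share was 7.46%. The mean link number of all listed bins was also highest on chromosome 19, at 6.13, and lowest on chromosome 1, at 3.25, but the order between them differed: chromosome X had 3.96 links, and chromosome 17 had 5.12 with a share of 7.03%. Over the 19 autosomes the share was lower the farther the last listed position lay (Pearson's r -0.89, Spearman's rho -0.82), and without chromosomes 1 and 19 the values were -0.83 and -0.75. The mean link number had a rho with the same length of -0.90 in valued bins and -0.81 in unvalued bins, so both kinds of bin shared a gradient of links. Whether the fixed minimum of 4 links accounts for the uneven share was not tested. These chromosomes share their libraries.

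**Figure D3:**
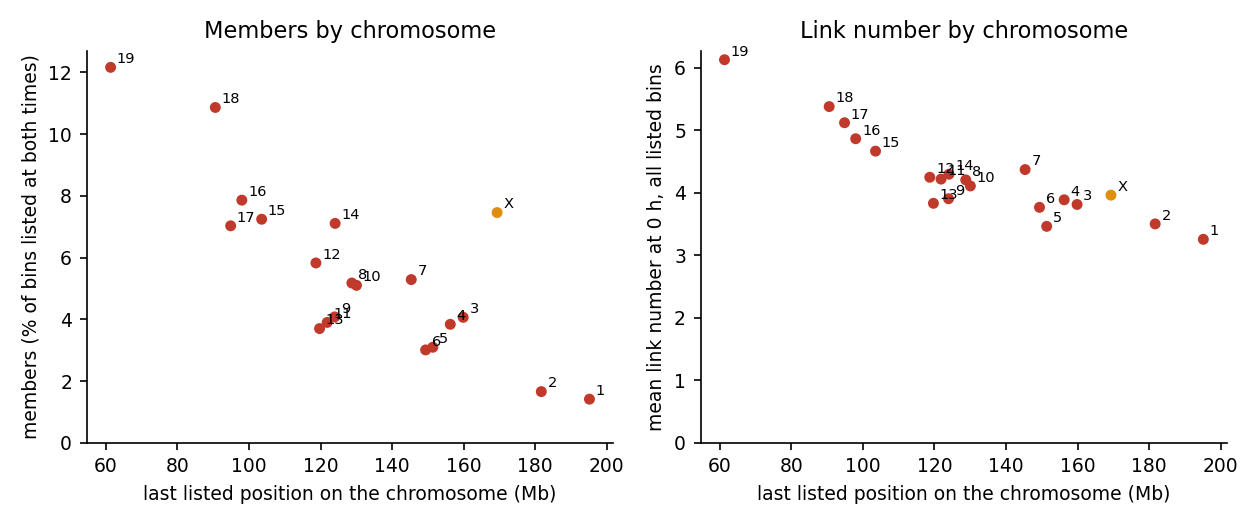
Percent of the listed bins that are unvalued linked bins (members, left) and mean link number of all listed bins at 0 h (right) for each of 20 chromosomes, against the last listed position in Mb; the X chromosome is orange. Both fall from chromosome 19, at 12.2% and 6.13 links, to chromosome 1, at 1.42% and 3.25 links, and X lies above the autosomes of like length on the left.

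Links at 24 h were lower than at 0 h. The minimum was set at 0 h alone, which by itself favours lower numbers at 24 h, so the values are a description. The summed links went from 11013 to 9130 (24 h over 0 h ratio 0.829, with 0.753 to 0.878 over chromosomes), and the median went from 5 to 4. Of the bins 1312 (59.8%) were lower, 556 equal and 327 (14.9%) higher, against 57.7% lower and 18.7% higher among all 18633 bins with 4 or more links at 0 h. At 24 h 1347 bins (61.4%) still had 4 or more links. The ratio was 0.880 in valued linked bins, and 0.904 for the links of the whole lists. With the minimum set at 24 h in place of 0 h, the 1985 bins so chosen had a ratio of 1.10 and the valued bins 0.938. With 8 or more links over both times, which favours neither time, the ratios were 0.947 for 1616 unvalued bins and 0.905 for 14038 valued bins. The order of the unvalued and the valued bins thus turned with the rule.

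At equal 0 h links the unvalued linked bins had fewer links at 24 h than valued linked bins (difference -0.41 links, mean over chromosomes -0.46, SD 0.20), lower on 20 of 20 chromosomes. A 24 h number of 0.5 times the 0 h number or less was seen in 405 bins (18.5%, 16.8 to 20.1), against 12.1% of all bins with 4 or more links. A number of 2 times or more was seen in 4 (0.182%, 0.0497 to 0.466), against 0.365%. The rule used the 0 h number, and valued bins spread to higher numbers, so these counts are not read further.

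Within the unvalued linked bins, those with KLF4 had a lower ratio of 24 h to 0 h links than those without. The 235 bins with KLF4 had 1232 links at 0 h and 937 at 24 h (ratio 0.761), and the 1960 without had 9781 and 8193 (ratio 0.838). Of the first, 68.1% were lower and 9.79% higher at 24 h, of the second 58.8% and 15.5%. At equal 0 h links the difference was -0.37 links (mean over chromosomes -0.36, SD 0.55), lower on 18 of 20 chromosomes, which held 2 to 30 KLF4 bins each. The SD over chromosomes exceeded the mean difference. In bins with 8 or more links over both times the difference in change at equal sum was -0.37, lower on 13 chromosomes and higher on 7. Its mean over chromosomes was -0.30 with a larger SD of 0.87, and chromosomes held 1 to 25 KLF4 bins each. In valued linked bins with and without KLF4 the difference was -0.24 (mean over chromosomes -0.17, SD 0.26), lower on 14 and higher on 6, and whether it differs between both kinds of bin was not tested. Bins at gene ends differed from the others by 0.06 links, and bins touching a valued bin from those that did not by 0.26 (mean over chromosomes 0.27, SD 0.65), higher on 17 chromosomes.

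The largest drop from 0 h to 24 h was near Scd4, a stearoyl-CoA desaturase (chromosome 19, 44350001 to 44360000), from 8 to 2 links. Drops of 5 links were counted at Stpg1 (7 to 2), Oscar, a receptor of osteoclasts (6 to 1), and Prss16, a serine protease of the thymus (9 to 4). The same drop was counted at Zfp148, a zinc-finger factor (6 to 1), near Kcnrg (6 to 1) and near Chrd, the BMP antagonist chordin (8 to 3). It was also counted near Tomm6, the gene of a subunit of the mitochondrial import pore (10 to 5). A further pair of bins with no gene end within 100 kb, on chromosome 16 (9180001 to 9190000) and chromosome 17 (70700001 to 70710000), went from 6 to 1. KLF4 lay in the bins at Oscar and Prss16. In all 17 bins were lower by 5 or more, of which the first 10 by difference and position are named. Single bins have no error here.

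The largest gain was at Tnfrsf17, the plasma cell receptor BCMA (chromosome 16, 11310001 to 11320000), from 4 to 10 links. It was followed by a bin on chromosome 14 (99480001 to 99490000, 4 to 9) without a gene end within 100 kb and a bin near Fam43a (chromosome 16, 30630001 to 30640000, 4 to 9). Next were a bin near Klf5 (chromosome 14, 99400001 to 99410000, 6 to 10) and a touching pair on chromosome 19. The nearest gene ends of the pair were those of Zdhhc16 (4 to 8) and Mms19 (6 to 10). Gains of 3 were counted at Setd5 (5 to 8), Tmem41b (6 to 9), Dnmt1, the maintenance DNA methyltransferase (4 to 7), and Arid5b (4 to 7), out of 26 bins higher by 3 or more. Of the 10 bins the one near Klf5 held KLF4 and the one at Dnmt1 an iPSC H3K27ac peak. The bin on chromosome 14 without a gene end within 100 kb lay 186 kb from the lower-coordinate end of Klf5. Of the 6 bins higher by 4 or more, 2 thus lay around a possible target of the guides, per the labels. Both are bins of the same locus, whose neighbouring bins may share links, so they are not independent. The 6 bins were picked by their rise, and a relation to the knockout was not tested.

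Around Klf5 (chromosome 14, 99298691 to 99313412, with 250 kb on each side) each kind of bin had more links in sum at 24 h. Its 7 unvalued linked bins had 5, 7, 6, 4, 4, 5 and 4 links at 0 h and 5, 10, 10, 7, 7, 5 and 9 at 24 h, in order of position, a sum of 35 and 53. Of the 7, 5 were higher, 2 equal and none lower, where 14.9% of all unvalued linked bins were higher. The 31 bins valued at both times had 350 and 397 links, 20 of them higher, 6 equal and 5 lower. The 3 unvalued linked bins within 150 kb of Fam43a had 18 and 26 links in sum, with 2 higher and 1 equal.

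Around Lbx1, a homeobox gene (chromosome 19, 45232684 to 45236841), the unvalued linked bins had fewer links in sum at 24 h, the direction of most such bins. Its 4 assigned bins had 4, 6, 4 and 7 links at 0 h and 2, 2, 1 and 2 at 24 h, and the first pair held 1 and 2 KLF4 peaks. The 5 bins of the next gene, Btrc, an F-box protein of ubiquitin ligases (chromosome 19, 45363688 to 45533343), had 4, 6, 4, 6 and 5 links and then 2, 3, 3, 4 and 2. Within 250 kb of Lbx1, 17 unvalued linked bins had 91 links at 0 h and 58 at 24 h, with 13 lower, 4 equal and none higher. Among all unvalued linked bins 59.8% were lower and 14.9% higher. The 12 bins valued at both times in this window had 140 and 119 links. Bins of these loci are neighbours that may share links, so they are not independent, and Lbx1, Btrc and the window around Klf5 were chosen after their values were seen.

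**Figure D4:**
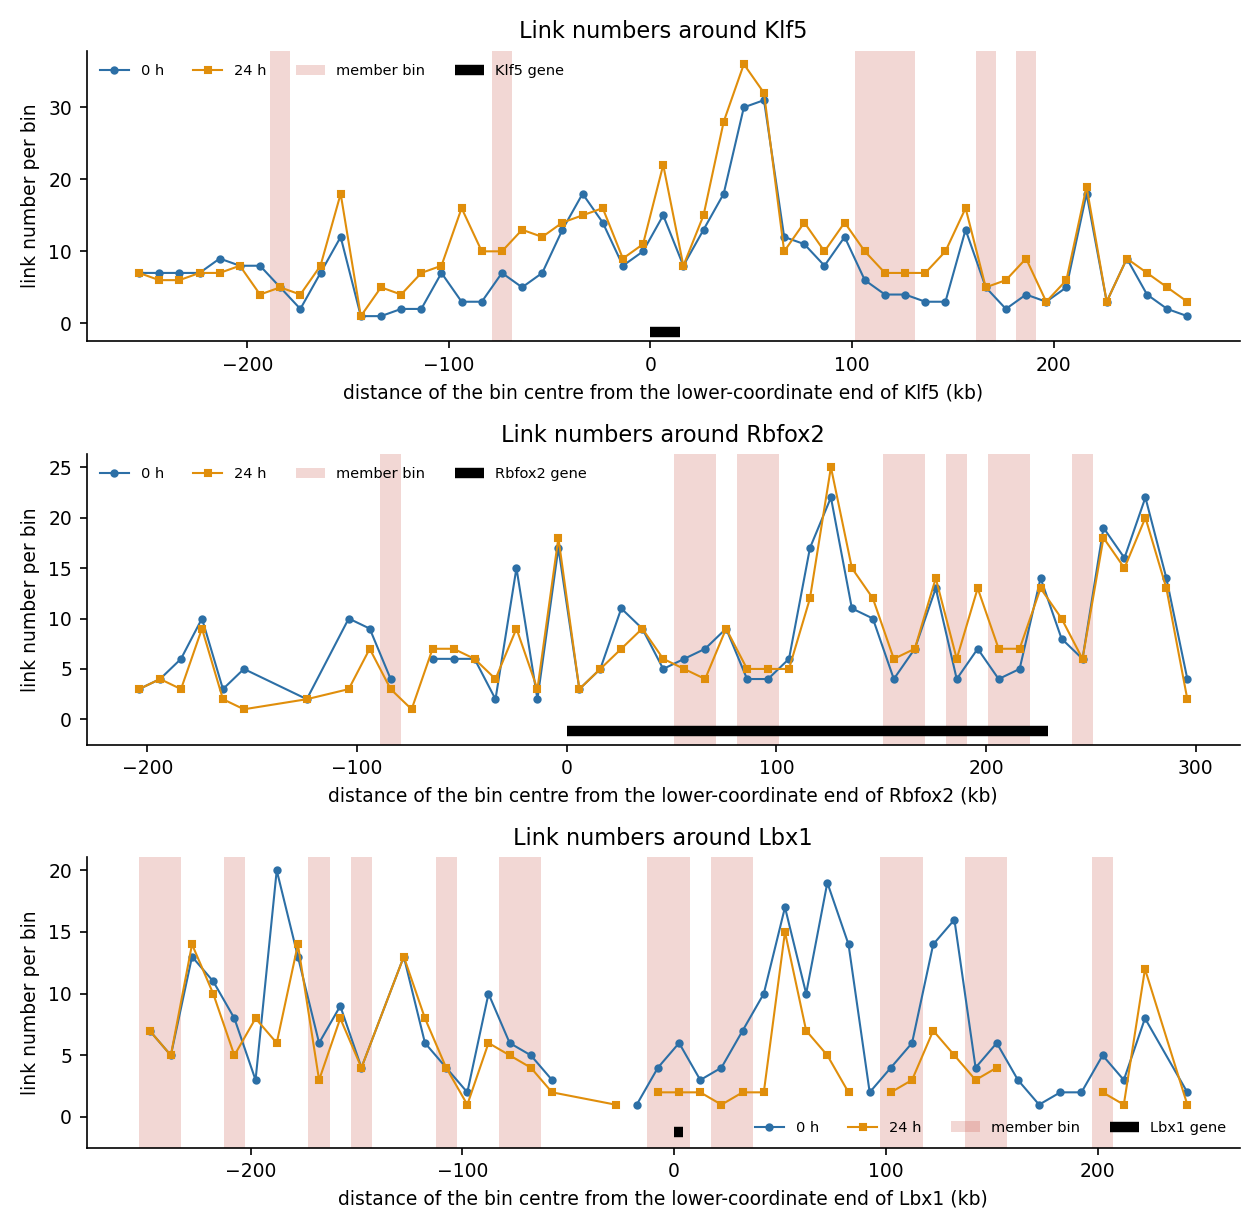
Link number per 10 kb bin at 0 h (blue) and 24 h (orange) around Klf5, Rbfox2 and Lbx1, against the distance of the bin centre from the lower-coordinate end of the gene in kb; lines join listed bins and break where a bin is listed at 1 time, pink bands are the unvalued linked bins (member bins, merged where they touch) and the black bar is the gene. Orange lies at or above blue in all 7 member bins around Klf5 and at or below it in all 17 around Lbx1, and in the gene body of Rbfox2 it is higher in 6 of the 9.

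Genes of pluripotency and development were looked up in 11 lists. Of 12475 protein-coding genes with a listed bin in the gene or 10 kb on each side, 1993 (16.0%) touched an unvalued linked bin. In the list of naive pluripotency 3 of 19 genes (15.8%) did. Esrrb, an orphan nuclear receptor (chromosome 12, 86361117 to 86521628), had 3 bins with 9, 6 and 5 links at 0 h and 5, 5 and 4 at 24 h, of which the last, past the gene, held KLF4. Tdh, threonine dehydrogenase, had 1 (4 and 4), and Fbxo15 1 (4 and 2). Of the genes shared by naive and later states 4 of 19 (21.1%) did: Jarid2, a subunit of Polycomb complex PRC2 (2 bins, 9 and 10 in sum), Pou5f1, which encodes OCT4 (1 bin, 6 and 6), Sall1, a zinc-finger factor (9 and 9), and Dppa4 (4 and 3). Of the formative and primed genes 1 of 7 did, Otx2, a homeobox factor (5 and 5).

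Among the KLF and SP factors, the family of KLF4 itself, 6 of 19 genes (31.6%) touched such a bin, against 16.0% of all 12475 genes. Whether this list or those that follow differ from that share was not tested, and the lists are small. Klf8 had 3 bins (5, 4 and 4 links at 0 h, then 2, 1 and 4), Klf15 had 2 (4 and 5 at both times), and Klf13 (4 and 3), Sp1 (10 and 6), Sp2 (5 and 6) and Sp7 (4 and 5) had 1 each. None of these bins held KLF4, which lay in 10.7% of all unvalued linked bins. In the HOX clusters 3 of 18 genes did (Hoxb13, 5 and 2, and Hoxc10 and Hoxc11, 4 and 3 each), and among developmental factors repressed by Polycomb 5 of 22: Cdx4 (6 and 6), Gata6 (4 and 1), Gsc (4 and 3), Neurog1 (4 and 2) and Olig2 (5 and 4). Gata6 and Sparc (7 and 7) were the 2 of 4 primitive endoderm genes, and Tead4 (4 and 4) and Tfap2a (5 and 4) the 2 of 9 trophectoderm genes. Of the CTCF, cohesin and loop factor genes 3 of 14 touched one, Rad21 (4 and 5) and Stag1 (5 and 4), both cohesin subunits, and Wapl, the cohesin release factor (7 and 6). No gene of 6 in the fibroblast and feeder list and none of 13 neuronal adhesion and channel genes did. The median was 0 such bins a gene in 10 of the 11 lists, as it was over all genes, and 0.5 in the 4 primitive endoderm genes.

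The lists also carry columns of marks of 0, 1 or 2 whose meaning is not stated. A mark above 0 in any of columns 5 to 9 was on 9.11% (7.94 to 10.4) of the unvalued linked bins, 29.4% (28.6 to 30.1) of valued linked bins and 8.95% (8.47 to 9.43) of weakly linked unvalued bins. Column 7 gave most of the difference, with 3.42% (2.70 to 4.26), 20.2% (19.6 to 20.9) and 3.72% (3.41 to 4.05), an odds ratio at equal links of 0.176 (0.139 to 0.224) against valued linked bins. Column 8 did not separate them, with 3.14%, 3.59% and 3.53% and an odds ratio of 0.923 (0.707 to 1.20). Column 6 marked 2 of the 2195 bins, against 2.81% of valued linked bins. Column 9 marked 0 of 2195 (exact interval up to 0.168%, floor of 3 counts 0.137%), against 1.94% of valued linked bins.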

How the data were processed

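The members and gene lists were chosen with earlier results of these data known. The 4 lists the authors deposited were used. The deposited ESC lists hold 10 kb bins with, in the fourth column, a whole number (a score of unstated meaning, here called the link number), and, in the last column, an H3K27ac signal of unstated scaling; bins without signal hold the smallest number a computer stores. The deposited iPSC lists hold peak positions only. Bowtie2, SAMtools, bedtools and MACS2 and build mm10 are named in the submitters' processing notes, with no role or version. The sources used here do not give how replicates were combined, and no depth, replicate error or test was available.

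From these, peaks were counted in bins at 1 bp overlap, and gene ends (RefSeq, GRCm38.p6, the primary assembly of mm10) within 2 kb. Odds ratios against valued linked bins are Mantel-Haenszel estimates within equal 0 h links, with 12 or more as 1 class. Weakly linked bins have fewer links by definition, so odds ratios against them use no classes of links. The one for touching a valued bin is within chromosomes. Differences in 24 h links are means over the classes of 0 h links, weighted by the bins of the group named first. The odds ratio and the difference were tested on simulated data. A floor for a count of 0 is 3 counts of the total. Promoter windows (chromosome 18 not analysed here) were matched by coordinates and searched for GGGNGTGG on both strands. Named bins were the 10 with most links, the 10 with most KLF4 peaks, the 10 largest falls and rises, the 5 farthest from a valued bin, the 10 genes with most bins, the 5 longest runs, and up to 4 genes per list of 11 lists (279 entries, 268 genes, all in the reference). The KLF and SP list and the Polycomb list are given in full, beyond this rule, after their values were seen. Alternatives changed the minimum, the time, overlap, distances, runs and chromosomes. Python 3.11.15, NumPy 2.4.6, pandas 2.3.3, SciPy 1.17.1 and Matplotlib 3.10.9 were used.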

Additional observations from a re-analysis of the deposited data

How the results depend on the processing

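No paired analysis was possible because the lists hold no values per replicate, and for the same reason leaving out a replicate was not run. Of 76 alternative values for 10 results, 53 stayed within the interval, the SD over chromosomes or the factor of 1.5 of the value reported. Another 22 moved and 1 reversed. In the reversed one the minimum was set at 24 h in place of 0 h. The members' ratio of 24 h to 0 h links then went from 0.829 to 1.10. The number of bins was 4380 with a minimum of 3 links, 546 with 6, 1347 with 4 or more at both times and 598 with each chromosome's own upper quartile (4 to 9 links, chosen after seeing the data). With a minimum of 6, the KLF4 share was 13.2%, the gene-end share 32.6%, the share touching a valued bin 85.7% and the median 24 h link number 6. With the minimum set at 24 h, the KLF4 share was 8.87% and its odds ratio 0.166. With the wider 50% of the peaks, the KLF4 share was 4.60%, its odds ratio 0.171 and the iPSC H3K27ac share 0.592%. The gene-end share was 41.3% at 5 kb and 46.1% with all annotated genes. The share touching a valued bin was 84.4% with 1 bin per run and 74.8% with bins valued at both times. Added after seeing the data, it was 89.0% with the upper quartile and 83.6% with chromosomes weighted equally, the median at 24 h was 5 with the upper quartile and with 8 or more links over both times, and the link ratio with the latter was 0.947. The cause of these shifts was not tested, apart from the lower number of peaks and the changed distance that the settings themselves set. Depth is unknown, the scaling between both times is not given, and neighbouring bins share signal and links, so intervals cover counting error only.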

Other observations

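Around Klf5 the rise of links at 24 h extended to bins outside the 2195. The 10 bins there without a value at both times and with 1 to 3 links at 0 h had 22 links in sum at 0 h and 53 at 24 h, with 8 higher, 2 equal and none lower. A bin at -93.7 kb from the lower-coordinate end of the gene had 3 links and no value at 0 h, and 16 links and a value of 2.92 at 24 h. Around Lbx1, 2 bins at 72.3 and 82.3 kb past the lower-coordinate end had 19 and 14 links with values of 3.72 and 4.30 at 0 h, and 5 and 2 links without a value at 24 h. Both held KLF4 in iPSCs, with 2 and 1 peaks. These bins were chosen after their values were seen.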
